A study of Drosophila melanogaster with 3 samples.

Results

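Runt-GFP peaks were examined at 9 genes of the fibroblast growth factor (FGF) and Ras pathways of Drosophila melanogaster: the FGF ligand genes bnl, ths and pyr, the FGF receptor genes btl and htl, the kinase gene Raf, the inhibitor gene sty, and the nuclear effector genes pnt and aop. The 9 genes are a choice of pathway genes out of 13945 protein-coding genes on the 6 main chromosome arms, and they were picked with their peaks already known. A peak was counted at a gene when its summit lay in the annotated gene span or within 5 kb of it. By this rule 199 of the 30000 peaks called on the pooled replicates lay at the 9 genes. Of these, 24 were in the list that passed the irreproducible discovery rate (IDR) threshold of the authors, which is 0.783% of that list. The IDR list holds the strongest 10.2% of the pooled peaks. The genes were selected on the positions and signal ranks of these same peaks, so counts, ranks and signal values at them are given as a description, with no test.

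The data came from chromatin immunoprecipitation and sequencing (ChIP-seq) of whole embryos aged 0 to 16 hours from a transgenic line that stably expressed Runt, a RUNX-family transcription factor, with GFP at its C-terminus. An anti-GFP antibody was used to precipitate chromatin in 3 biological replicates, which formed 1 group with no other genotype, treatment or stage. All cell types of the embryo and 16 hours of development were mixed in each sample, embryos were not sexed, and the labels do not say whether the line kept an untagged run gene. Peaks of every replicate were called against 1 shared control, so the replicate lists are not fully independent of each other. Peaks were ranked within each list by the signal value of the authors, with rank 1 the strongest of 30000, and the depth of the libraries is unknown.

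FGF signalling in the fly uses a small set of ligands and receptors. Branchless, the product of bnl, activates the receptor Breathless (btl) and guides branching of the trachea, while Thisbe (ths) and Pyramus (pyr) activate the receptor Heartless (htl) in spreading mesoderm and in the heart and muscle lineages. Activated receptors signal through Ras and the kinase Raf to a MAP kinase, which acts on a pair of ETS-family proteins, the activator Pointed (pnt) and the repressor Anterior open or Yan (aop), and Sprouty (sty) restrains the pathway.

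The strongest peaks were at Raf, bnl and aop, and no IDR peak was at pyr or btl. Raf had 9 IDR summits, bnl and aop had 4 each, ths, sty and pnt had 2 each, and htl had 1. An IDR summit was thus counted at 7 of the 9 genes, beside 33.8% of all protein-coding genes and 52.4% of the protein-coding genes at least as long as btl, the shortest of the 9. Longer genes offer more positions to this rule. The median span was 23783 bases among the 9 genes, 16826.5 among genes at least as long as btl and 2166 among all protein-coding genes. The genes at least as long as btl are thus not matched in length to the 9 genes. The median number of IDR summits was 2 among the 9 genes, 1 among genes at least as long as btl and 0 among all protein-coding genes. At least 4 IDR summits were counted at 3 of the 9 genes, beside 6.43% of the genes at least as long as btl and 1.44% of all protein-coding genes. Per 10 kb of span and flanks, Raf had 1.54 IDR summits, aop 1.24, bnl 0.758, sty 0.592, htl 0.563, pnt 0.303 and ths 0.296, and the genome as a whole had 0.229.

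**Figure D1:**
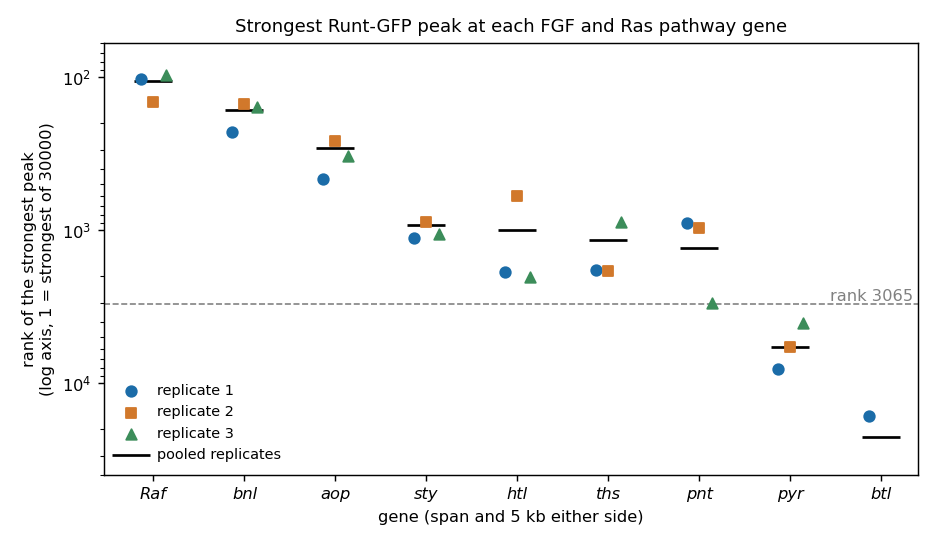
Rank of the strongest Runt-GFP peak at each of the 9 genes, on a log axis with rank 1 at the top, in each replicate list (symbols) and in the pooled list (bars). The dashed line marks the last rank of the IDR list. The ranks at Raf, bnl, aop and sty do not overlap between these 4 genes, and btl has a symbol for replicate 1 alone.

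The order of the genes by their strongest peak was the same in all 3 replicates for the leading 3. The best rank at Raf was 104, 146 and 98 in replicates 1, 2 and 3. At bnl it was 230, 152 and 158, and at aop it was 468, 264 and 332. At sty the best ranks were 1129, 886 and 1074. The ranges of these 4 genes did not overlap, while the ranges of sty, htl, ths and pnt overlapped, so no order among those was set beyond the spread between replicates. The order also rested on how peaks were assigned. With no flank the strongest IDR rank was 1829 at aop and 2253 at sty, behind htl, ths and pnt, and by nearest start alone it was 1473 at bnl, while Raf stayed first at rank 107 in both. The strongest peak at pyr, with ranks 8091, 5882 and 4095, was weaker than that of these genes in every replicate, and btl came last. At least 1 pooled summit was counted at each of the 9 genes, beside 81.6% of all protein-coding genes. To compare lists of equal length, the strongest peaks of each replicate were taken, as many as the IDR list holds, and are called its strongest peaks. Among them a summit was counted at 7 of the 9 genes in each of the 3 lists, beside 35.3%, 33.9% and 34.5% of all protein-coding genes in replicates 1, 2 and 3.

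The ligand gene bnl spans 42.7 kb on the minus strand of chromosome 3R (dm6, chr3R:19794073-19836817), and all 3 of its annotated transcripts share 1 start. Its strongest peak, at rank 164 in the pooled list with a signal value of 558, lay at chr3R:19803563-19804008, deep in the gene. The summit was 33080 bases from the 5′ end, in an intron that runs from 9163 to 36316 bases from that end. This interval was the only one in the IDR list with a pair of summits: the other, 199 bases away, ranked 777 in the pooled list with a signal value of 271. In each replicate list the strongest peak that overlapped this interval had its summit within 10 bases of the stronger one. Whether a lower-ranked replicate peak had its summit at the weaker one was not examined. The 2 remaining IDR peaks at bnl were weaker and lay near its start. A summit 5635 bases into the gene ranked 1473 in the pooled list and 9970, 805 and 1126 in the replicates, so replicate 1 stood far below the other 2. A summit 43 bases upstream of the start ranked 1936 in the pooled list and 3166, 2398 and 1939 in the replicates. A transfer RNA gene, tRNA:Thr-AGT-1-7, lies within bnl, 974 bases from the nearest IDR summit.

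The windows around a pair of bnl summits are shown because the strongest held the only RUNX consensus within 50 bases of any IDR summit at the 9 genes. All sequences are Release 6 plus-strand windows that reach 50 bases to each side of the summit. Capitals mark matches, on either strand, to the RUNX core TGNGGT with C or T at N and to the ETS core GGANG with A or T at N. The windows are chr3R:19803687-19803787 (rank 164) and chr3R:19831132-19831232 (rank 1473).
bnl summit at rank 164: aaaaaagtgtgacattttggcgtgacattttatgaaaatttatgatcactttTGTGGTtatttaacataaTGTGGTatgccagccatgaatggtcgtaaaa
bnl summit at rank 1473: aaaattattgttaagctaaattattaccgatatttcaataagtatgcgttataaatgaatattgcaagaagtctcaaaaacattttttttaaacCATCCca
In the stronger window the full RUNX consensus, TGNGGTN with C or T at each N, matched 2 to 8 bases to the right of the summit, at chr3R:19803739-19803745, and another RUNX core matched 20 to 25 bases to the right. The weaker window held an ETS core on the minus strand 44 to 48 bases to the right of the summit.

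The other ligand genes, near each other on chromosome 2R, had weaker peaks. In ths, which spans 57.6 kb on the plus strand (chr2R:11756817-11814424), both IDR summits were intronic. The stronger, 1417 bases downstream of the inner of its 2 annotated starts, ranked 1167 in the pooled list and 3069, 1858 and 891 in the replicates, with replicate 1 just outside its strongest peaks. The weaker ranked 2655 in the pooled list and 3899, 5096 and 1971 in the replicates, so replicate 3 alone had it among its strongest peaks. The best ranks at ths over all of its peaks were 1845, 1858 and 891. The 3 protein-coding genes CG13193, CG42493 and Ir48c lie within ths, and the nearest, Ir48c, was 2290 bases from an IDR summit. In pyr, which spans 14.1 kb on the plus strand (chr2R:11712263-11726345), none of the 19 pooled summits was in the IDR list. Its strongest summit in the pooled list, 11514 bases into the gene in an intron, ranked 5847, with 10085, 7117 and 5724 in the replicates and a −log10 q-value of 2.48 against 3.82 for all IDR peaks. The nearest IDR summit to pyr was 50614 bases away. Pooled summits at pyr numbered 7.89 per 10 kb of span and flanks, against 5.32 at ths, 5.88 at bnl and 2.24 over the genome.

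The receptor genes differed from each other. At btl, on the plus strand of chromosome 3L (chr3L:14075772-14083229), a single pooled summit was counted, at rank 22747 with a signal value of 37.7. This summit lay beyond the 3′ end, nearer to the start of CG8100, and its −log10 q-value was 0.59. Replicate 1 had 3 summits at btl, the best at rank 16543, and replicates 2 and 3 had none. The nearest IDR summit was 22512 bases from btl. At htl, which spans 7.77 kb on the minus strand of chromosome 3R (chr3R:18045216-18052984), the pooled list had 8 summits and the IDR list 1. The IDR summit lay 395 bases upstream of the inner of the 2 annotated starts, within an intron of the longer transcript. It ranked 1010 in the pooled list with a signal value of 238, and 1895, 604 and 2050 in the replicates, among the strongest peaks of each. A pooled summit 595 bases upstream of the same start ranked 5231, and a RUNX consensus lay within 50 bases of this weaker summit and not of the IDR summit. In each replicate the same peak was the strongest to overlap each of these 2 pooled peaks.

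The window at the IDR summit of htl, chr3R:18049711-18049811, is shown as the one IDR peak at an FGF receptor gene, and holds no RUNX or ETS core.
htl summit at rank 1010: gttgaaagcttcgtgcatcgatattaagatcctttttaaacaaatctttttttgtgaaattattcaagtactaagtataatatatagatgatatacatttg

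Raf, the kinase that links Ras to the MAP kinase cascade, had the most IDR peaks of the 9 genes and the strongest peak. In the pooled list ths had as many summits as Raf, 36 each. The gene spans 48.4 kb on the plus strand of the X chromosome (chrX:2295466-2343870), with a long transcript from the 5′ end and a short one that starts at position 2340298. The 9 IDR summits lay in a stretch of 12817 bases from 1716 bases upstream of the long transcript to 11101 bases downstream of its start, with gaps of 634 to 2585 bases and a median gap of 1477 bases. Only 8 of all 13945 protein-coding genes had more IDR summits than Raf, and 4, Raf among them, had as many. No IDR summit lay in the remaining part of the long intron or at the short transcript, although 36 pooled summits were spread over the whole gene and its flanks. The 3 protein-coding genes nested in Raf, among them the insulin-like peptide gene Ilp6, were at least 18181 bases from any IDR summit.

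Of the Raf summits, 5 had pooled ranks of 107 to 261. The strongest, 2264 bases downstream of the start in the long intron, ranked 107 with a signal value of 668, and 104, 146 and 98 in the replicates. The summit 1716 bases upstream ranked 160, and 131, 241 and 152 in the replicates. It was 339 bases from the start of the divergent gene CG2865, so it belongs to the flanks of both genes. Summits 5219, 869 and 8665 bases downstream of the start ranked 250, 260 and 261. The one at 869 bases lay in an exon of the 5′ untranslated region, and the other two in the long intron. Their replicate ranks were 158, 232 and 289 for the first, 577, 246 and 223 for the exonic one, and 361, 258 and 234 for the last. All of these ranks were among the strongest peaks of each replicate, and no replicate was the weakest at all 5 summits. The 4 weaker summits ranked 784, 1096, 2406 and 3035. The one at rank 784 ranked 1154, 2361 and 432 in the replicates, and the one at rank 3035 ranked 3436, 2195 and 3831, so it was among the strongest peaks of replicate 2 alone.

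The Raf windows at ranks 107 (chrX:2297680-2297780) and 250 (chrX:2300635-2300735) are shown as the strongest at the 9 genes and the strongest with an ETS core.
Raf summit at rank 107: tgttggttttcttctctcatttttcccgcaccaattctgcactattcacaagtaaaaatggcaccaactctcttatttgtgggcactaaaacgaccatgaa
Raf summit at rank 250: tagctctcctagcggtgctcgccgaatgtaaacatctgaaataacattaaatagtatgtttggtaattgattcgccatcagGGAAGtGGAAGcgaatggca
The window at rank 107 held no RUNX or ETS core, and the window at rank 250 held a pair of ETS cores on the plus strand, 31 to 35 and 37 to 41 bases to the right of the summit. None of the 9 Raf summits had a RUNX consensus within 50 bases.

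The inhibitor gene sty spans 23.8 kb on the minus strand of chromosome 3L (chr3L:3401153-3424935). Its stronger IDR summit was intergenic, 4895 bases beyond the 3′ end, and so lay just inside the limit of 5 kb. It ranked 934 in the pooled list and 1129, 886 and 1074 in the replicates. The nearest protein-coding start, that of Ids, was 17990 bases from it. The weaker summit lay in an intron 511 bases upstream of the inner annotated start of sty, and ranked 2253 in the pooled list and 1778, 2122 and 1786 in the replicates. Both summits were among the strongest peaks of all 3 replicates, with replicate ranks that spread 1.27-fold at the stronger and 1.19-fold at the weaker. The windows at ranks 934 (chr3L:3396208-3396308) and 2253 (chr3L:3418422-3418522) are shown because they had the lowest and the highest GC content of the 24, 20.8% and 62.4%. Neither held a RUNX or ETS core.
sty summit at rank 934: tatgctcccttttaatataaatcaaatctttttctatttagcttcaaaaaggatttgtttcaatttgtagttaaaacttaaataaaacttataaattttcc
sty summit at rank 2253: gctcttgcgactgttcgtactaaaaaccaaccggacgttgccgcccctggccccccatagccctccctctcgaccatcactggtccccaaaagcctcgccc

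The effector genes pnt and aop encode ETS proteins with opposite effects on transcription. At pnt, which spans 55.9 kb on the minus strand of chromosome 3R (chr3R:23290231-23346167) and has 4 transcripts with 3 starts, peaks were many but weak. The pooled list had 32 summits at pnt and the IDR list 2. The stronger, in an intron 12203 bases upstream of an inner start, ranked 1309 in the pooled list and 900, 982 and 4622 in the replicates, so replicate 3 had it outside its strongest peaks. The weaker, 855 bases upstream of the 5′ end, ranked 2684 in the pooled list and 3444, 4271 and 3436 in the replicates. It was the one IDR peak at the 9 genes that was in no replicate among the strongest peaks. Pooled summits also lay 282 and 175 bases upstream of the inner starts of pnt, at ranks 3268 and 3944, just outside the IDR list. The window at rank 1309, chr3R:23326468-23326568, is shown as the strongest at pnt and held no RUNX or ETS core.
pnt summit at rank 1309: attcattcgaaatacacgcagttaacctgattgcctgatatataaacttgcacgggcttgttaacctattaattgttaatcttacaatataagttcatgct

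At aop, which spans 22.3 kb on the minus strand of chromosome 2L (chr2L:2156484-2178754) and has 5 transcripts with 2 starts, 3 of the 4 IDR summits surrounded the 5′ end. The strongest, 1507 bases upstream, ranked 293 in the pooled list with a signal value of 425, and 468, 264 and 332 in the replicates. The summit 824 bases upstream ranked 1959, and 2264, 934 and 2792 in the replicates. The summit 997 bases downstream of the start ranked 2809, and 14146, 5571 and 1735 in the replicates, an 8.15-fold spread and the most uneven among the 24 after the bnl summit at rank 1473, whose ranks spread 12.4-fold. An intronic summit at rank 1829, with 1205, 1631 and 4285 in the replicates, lay between the 2 starts. The windows at ranks 293 (chr2L:2180211-2180311) and 1829 (chr2L:2168342-2168442) are shown as the strongest at aop and the one with an ETS core, which lay on the minus strand 39 to 43 bases to the left of the summit.
aop summit at rank 293: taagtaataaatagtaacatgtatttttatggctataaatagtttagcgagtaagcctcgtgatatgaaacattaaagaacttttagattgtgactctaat
aop summit at rank 1829: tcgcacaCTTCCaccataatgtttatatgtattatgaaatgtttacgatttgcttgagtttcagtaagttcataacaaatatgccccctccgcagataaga

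**Figure D2:**
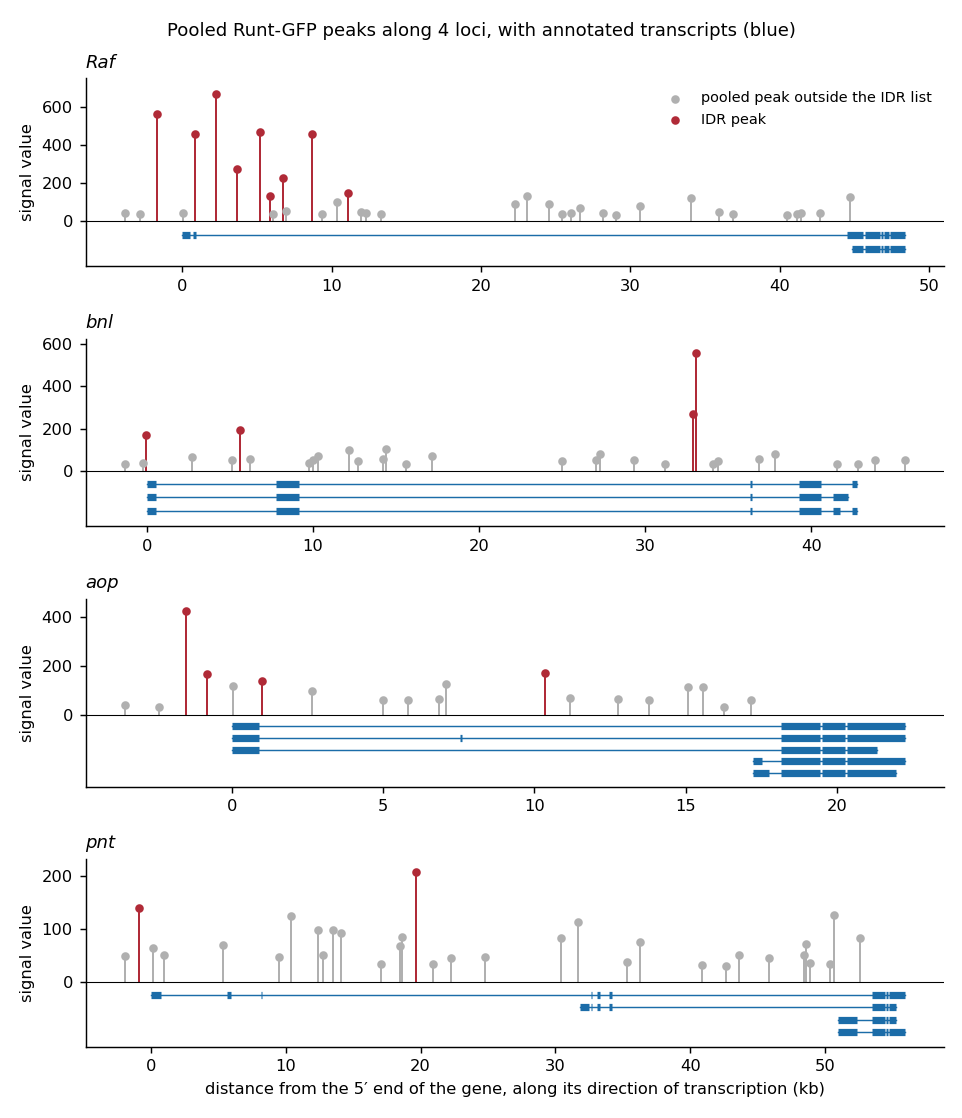
Summits of pooled Runt-GFP peaks along Raf, bnl, aop and pnt, with distance from the 5′ end in the direction of transcription on the x axis (kb) and the signal value of the authors, which has no stated unit, on the y axis. Red marks IDR peaks, grey the other pooled peaks, and blue boxes and lines the exons and introns of each transcript. The 9 IDR peaks at Raf lie within 12817 bases around the 5′ end, and the strongest at bnl lies 33080 bases into the gene.

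The 24 IDR peaks were found again in the replicates about as often as other IDR peaks. Each of the 24 overlapped a peak in all 3 full replicate lists. Among the strongest peaks of each replicate, 17, 20 and 20 of the 24 were overlapped in replicates 1, 2 and 3. Overlap in all 3 replicates was found for 14 of the 24 (58.3%), against 1767 of all IDR peaks (57.7%). Of the rest, 6 were overlapped in 2 replicates, 3 in 1 and 1 in none. Their median pooled rank was 1131.5 against 1533 over the IDR list, and the median signal value was 223 against 190. The summit in a replicate was a median of 23.5 bases from the pooled summit, and 56 of 72 such distances were within 50 bases. Of all 199 pooled peaks at the 9 genes, 175 of them outside the IDR list, 106 (53.3%) overlapped a peak in all 3 replicate lists, against 48.6% of the 30000 pooled peaks.

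**Figure D3:**
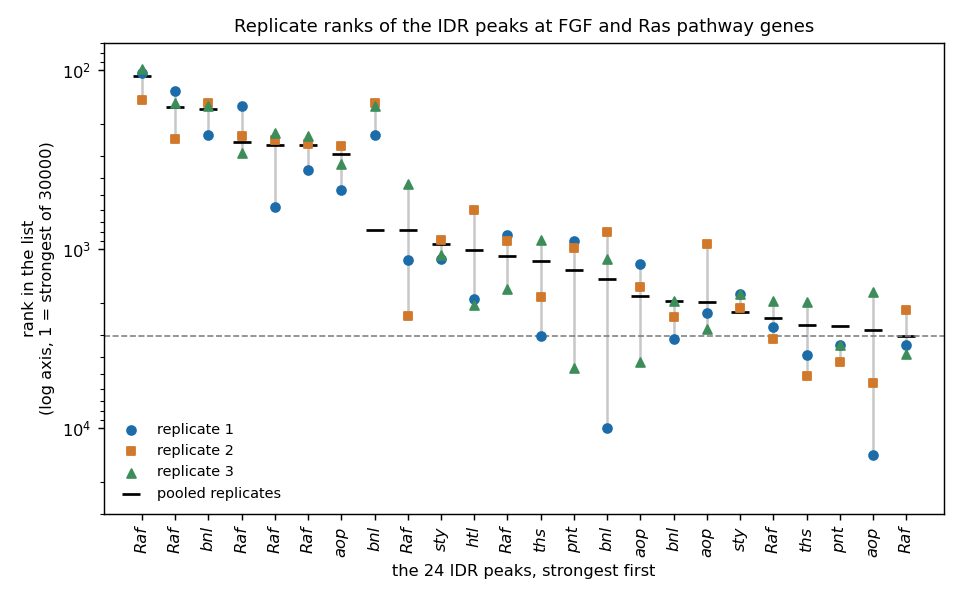
Ranks of the 24 IDR peaks at the 9 genes in the 3 replicate lists (symbols) and the pooled list (bars), ordered by pooled rank, on a log axis with rank 1 at the top. The dashed line marks the last rank of the IDR list. The strongest 7 lie within rank 577 in every replicate. The bnl peaks at ranks 164 and 777 share the same strongest overlapping peak in each replicate.

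The limits of the rule were close to some of these peaks. The weakest peaks inside the IDR list were at pnt, aop and Raf, at ranks 2684, 2809 and 3035 with signal values of 141, 137 and 131. Just outside were peaks at Raf, pnt and Raf at ranks 3136, 3268 and 3290, with signal values of 129, 126 and 126. The last of these lay 140 bases upstream of the short Raf transcript, with ranks of 4086, 3546 and 8274 in the replicates. Just beyond 5 kb, an IDR summit at rank 1396 lay 6165 bases from sty. Farther out, one at rank 613 lay 9125 bases from pnt, and one at rank 1476 lay 11218 bases from bnl.

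Most of the IDR summits at the 9 genes were intronic and few were at starts. Introns held 16 of the 24 (66.7%), against 50.4% of the IDR summits at genes at least as long as btl and 38.4% of all IDR summits. A further 3 of the 24 (12.5%) lay within 500 bases of an annotated start, against 41.4% at long genes and 45.0% of all IDR summits. These 3 were the bnl summit 43 bases upstream of its start, the htl summit at the inner start, and the Raf summit close to the start of CG2865. In exons lay 1 summit (4.17%), at Raf, and in intergenic sequence 4 (16.7%), against 2.27% and 5.92% at long genes and 2.48% and 14.1% of all IDR summits. In all, 18 of the 24 lay inside the gene, 5 upstream and 1 downstream. For 20 of the 24 the nearest protein-coding start was that of the gene itself, and each of the 7 genes with an IDR summit had at least 1 such summit. The exceptions were the pair of summits deep in bnl, nearest to the start of Acsx4, the Raf summit nearest to CG2865 and the sty summit nearest to Ids. A start nearest to an IDR summit was found for 14.9% of all protein-coding genes. The 24 summits cluster at a few genes and are not independent of each other, so these shares were not tested.

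Sequence motifs were searched on both strands around the summits, and no difference between the 24 and the IDR list was tested. The RUNX consensus was within 50 bases of 1 of 24 summits (4.17%), against 9.36% of all IDR summits. Over the whole peak it was present in 5 of 24 (20.8%), against 20.5%. These were both bnl summits of the shared interval, which count the same match, the bnl summit at rank 1936, the Raf summit at rank 2406 and the aop summit at rank 2809. The ETS core was within 50 bases of 3 of 24 summits (12.5%), at bnl, Raf and aop, against 16.7% of all IDR summits. The GATA motif, NGATAN with A or T first and A or G last, was near 5 of 24 (20.8%), at ths, Raf, pnt and, with 2 summits, aop, against 23.1%. The homeodomain motif TAATTA was near 1 summit (4.17%), at Raf, against 9.89% of all IDR summits. The Zelda motif CAGGTA was near 1 summit, also at Raf, against 1.60%, and the T-box motif AGGTGT was near 1 at aop, against 2.81%. The E-box motifs CATATG and CACATG were both near 1 Raf summit, against 7.24% of all IDR summits with either. None of the 24 windows held the longer ETS motif CCGGAAG, which contains the ETS core and was near 0.39% of all IDR summits, the GAGA factor motif GAGAGAG (1.89%) or the Tinman motif TNAAGTG with C or T at N (3.72%). Nor did any hold the bHLH-PAS motif TACGTG (1.79%), the AP-1 motif TGANTCA (1.89%) or the DREF motif TATCGATA (0.72%). Over all 199 pooled summits at the 9 genes, a RUNX consensus was near 18 (9.05%), against 7.66% of the 30000 pooled summits. Mean GC content was 36.1 ± 10.4% at the 24 windows, against 34.4 ± 10.5% at all IDR windows (SD over windows).

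**Figure D4:**
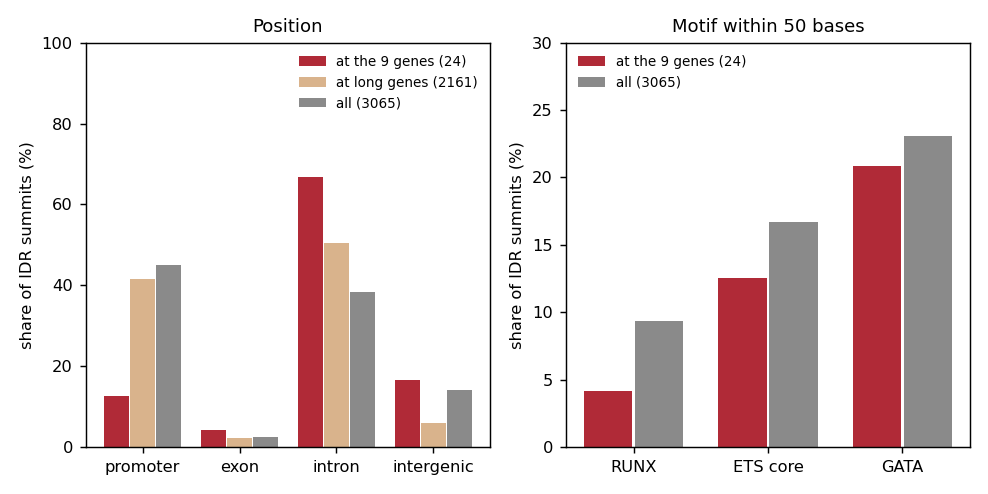
Shares of IDR summits (%) by position (left) and with a motif within 50 bases (right), for the 24 summits at the 9 genes (red), those at genes at least as long as btl (tan, left panel only) and all IDR summits (grey). Introns hold 66.7% of the 24 and 38.4% of all, and the RUNX consensus is near 4.17% and 9.36%.

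Other genes of these pathways were counted on lists chosen with earlier results of these data known. An IDR summit was at 45 of 81 such genes (55.6%), beside 33.8% of all protein-coding genes. Among the listed genes at least as long as btl it was at 33 of 48 (68.8%), beside 52.4% of all protein-coding genes at least that long. These shares are not matched for length: the median span was 23398 bases for the 48 and 16826.5 for the others. For 28 of the 45 the strongest summit was nearest to the start of the listed gene itself. The adaptor gene stumps, which acts downstream of both FGF receptors, had 2 summits, the stronger at rank 922, with 1371, 763 and 945 in the replicates. Of the Ras to MAP kinase cascade, 4 of 13 genes (30.8%) had a summit, a share near the 33.8% of all protein-coding genes. They were led by the scaffold gene cnk at rank 187, the adaptor gene drk at rank 573 and the adaptor gene dos at rank 853. The cnk and drk summits were nearer to the starts of l(2)k01209 and mars than to their own. No IDR summit was at Sos, Ras85D, Dsor1 and rl, which encode the exchange factor, Ras and the kinases below Raf. These genes were not alike. The best ranks at Ras85D were 3564, 3495 and 1870 in the replicates, but its 1 pooled summit ranked 16573, while rl had no peak in any list.

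Effectors and inhibitors were described in the same way, beside an IDR summit at 33.8% of all protein-coding genes and 52.4% of those at least as long as btl. Of 10 other nuclear effectors 7 had one (70%), led by edl, whose product binds ETS proteins, at rank 268 with 4 summits, the corepressor gene gro at rank 511 and the ETS gene Eip74EF at rank 553. Of 8 other inhibitors 5 had one (62.5%), led by aos, which encodes a secreted inhibitor of the EGF receptor, at rank 246, RasGAP1 at rank 329 and the MAP kinase phosphatase gene Mkp3 at rank 519. At aos the ranks were 215, 204 and 277 in the replicates. Of 8 genes listed for the EGF receptor and its ligands 6 had one (75.0%), led by the ligand gene spi at rank 239. Next were S, which encodes the chaperone Star, at rank 358, and the ligand gene Krn at rank 770, whose summit was nearest to the start of Ndfip. The receptor gene Egfr itself had no IDR summit, and its best pooled rank was 4122. Of 12 genes for other receptor tyrosine kinases or their ligands 5 had one (41.7%), led by the insulin receptor gene InR at rank 741 and the ligand genes Pvf3 and jeb at ranks 925 and 1483.

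The heparan sulfate, mesoderm and tracheal lists varied. They too stand beside an IDR summit at 33.8% of all protein-coding genes and 52.4% of those at least as long as btl. Genes on the heparan sulfate list differ in span, from 2816 bases at sotv to 63688 at dally and 79236 at Hs6st, and shares were not matched for length. Of 9 genes listed for heparan sulfate and FGF reception, 8 had an IDR summit (88.9%), led by the glypican gene dlp at rank 478, sgl at rank 869 and Hs6st at rank 938. For only 3 of the 8 was the strongest summit nearest to the start of the listed gene itself. The dlp summit lay inside dlp but was nearest to the start of CG43121. Of 10 genes on the mesoderm list 6 had an IDR summit (60%), led by Dok at rank 121, the heart determinant tin at rank 314 and zfh1 at rank 663. Whether Dok acts in mesoderm was not tested. Of 10 tracheal genes, where btl acts, 3 had an IDR summit (30%), a share near the 33.8% of all protein-coding genes. These were the tracheal determinant trh at rank 480, rib at rank 957 and bs at rank 2002, the last nearest to the start of CG44812. A RUNX consensus was within 50 bases of the strongest IDR summit at 1 of the 45 genes (2.22%), Pvf2, against 9.36% of all IDR summits.

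**Figure D5:**
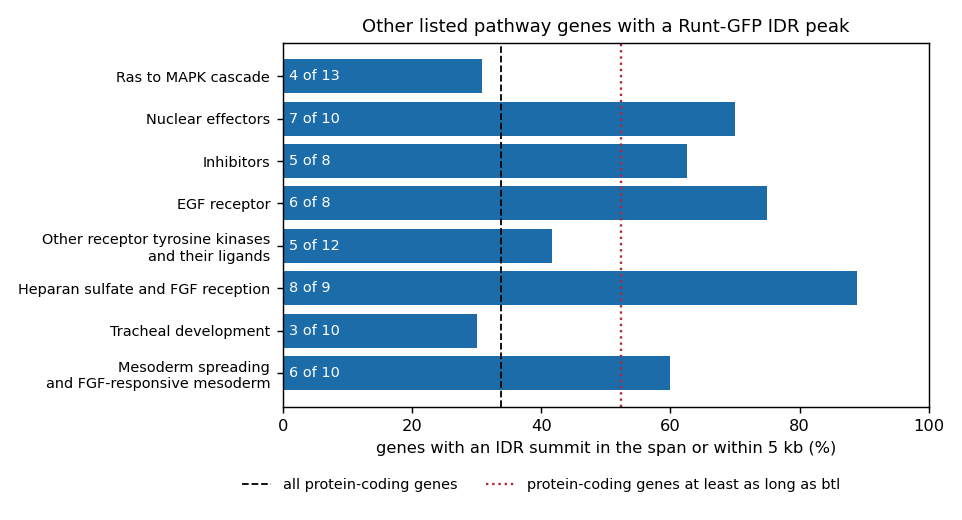
Share of the other listed pathway genes (%) with an IDR summit in the span or within 5 kb, by list, with counts in the bars. The dashed line is the share of all protein-coding genes (33.8%) and the dotted line that of genes at least as long as btl (52.4%). The list with only stumps is left out.

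Among the 9 genes Raf had the strongest peak, and the genes most like it by strongest rank in the 3 replicates were searched over all protein-coding genes. Likeness was the distance between log10 ranks over the 3 replicate lists. The neighbour CG2865 had a distance of 0, since its flank holds the same peak. Next came 6 genes that share 1 peak on chromosome 2L, CG17646, CG17652, CG31937, Eno, Rim2 and Rrp40, with ranks of 118, 148 and 99 and a distance of 0.0553.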

How the data were processed

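Peak lists on dm6 were analysed for 3 biological replicates, for the pooled replicates and for the IDR threshold. Per the readme files, replicate peaks were called from each alignment against 1 shared control alignment, and pooled peaks from the 3 alignments together against the same control. Aligner, caller and the threshold of the IDR step were not given in the sources used here. For each peak, the deposited signal value is the authors' own, with a scaling that is not given, and it served only to rank peaks inside 1 list. The authors' −log10 q-value, 3.82 for every IDR peak, could not rank them. IDR peaks were the 3065 strongest pooled peaks. Read depth is unknown.

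Summits were placed on the Ensembl release 115 annotation of BDGP6.54, whose arm lengths match dm6, with transposable elements and pseudogenes left out. Each summit was classed as promoter when an annotated start lay within 500 bases, otherwise as exon, then intron, then intergenic. Peaks matched a replicate peak at an overlap of at least 1 base, in the full list or among its 3065 strongest. Motifs were searched in RefSeq Release 6 sequence within 50 bases of the summit. The 9 genes, the pathway lists and the rule for naming genes (up to 3 per list, by strongest IDR rank) were chosen with earlier results of these data known. All listed genes were matched, dys as dysf, tango as tgo, sulf1 as Sulf1 and Gap1 as RasGAP1. Counting was checked on simulated peaks. The software was Python 3.11.15 with pandas 2.3.3, numpy 2.4.6 and matplotlib 3.10.9.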

Additional observations from a re-analysis of the deposited data

How the results depend on the processing

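The number of genes with an IDR summit, 7 of 9, was the same with no flank, with 2 kb or 10 kb, with the stronger 50% of the IDR peaks, and with the strongest peaks of each replicate. Keeping only IDR peaks matched among the strongest of the other 2 replicates left 5 to 6 of the 9 genes, and 15 to 17 of the 24 summits, with both lowest counts when replicate 2 was left out. With the stronger 50% of the IDR peaks 15 summits were left. The share of all protein-coding genes, 33.8% at 5 kb, is not given for the other flanks, the stronger 50% or the matched peaks. The gene counts under those settings are therefore not set beside other genes. Counting any of the 30000 replicate peaks as a match put 24 rather than 14 IDR peaks in all 3 replicates. The RUNX consensus, at 1 summit, was at 2 of 24 (8.33%) within 100 bases, against 14.6% of all IDR summits, and at 5 (20.8%) over the whole peak, against 20.5%. The shorter cores TGNGGT and NGNGGT, with C or T at each N, were at 2 each, against 13.3% and 15.9%. The consensus was at 2 of the 27 strongest peaks of replicate 1 at the 9 genes, and at 2 of the 26 of replicate 3. The share over all strongest peaks of these replicates is not given. Summits within a promoter, 3 of 24 at 500 bases, numbered 1 at 250 bases and 8 at 1000 bases. They numbered 1 of 18 with no flank and 5 of 24 among the strongest peaks of replicate 2. The share over all IDR summits, 45.0%, is given for 500 bases alone. By nearest start alone the strongest rank at sty was 1308. No paired analysis was possible because the samples form 1 group. With 3 replicates that share 1 control and no read counts, neither the precision of a rank nor the absence of binding at btl and pyr can be set.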
